A study of Arabidopsis thaliana with 83 samples.

Results

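Auxin is a plant hormone that acts through a short pathway: its receptors mark the Aux/IAA repressors for destruction, and auxin response factors then drive early target genes. Known early targets include the Aux/IAA genes themselves, the SAUR genes and the GH3 genes, whose enzymes conjugate auxin to amino acids and so lower the free hormone. Transcripts of some early targets fall back within hours, while others stay high for longer.

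The sustained probe sets described here were chosen from their measured values, and that choice is a description, not a result. On log2(signal + 16), a probe set had to average a change from the 0 h arrays of its own accession of at least 1 at each of 30 min, 1 h and 3 h. The average was taken over 7 accessions, and at 3 h it had to hold at least 50.0% of the larger of the 30 min and 1 h changes. Of 22746 probe sets without controls, 27 met these conditions. A list of 10 genes was left out by the rule, and 6 of them met the conditions (GH3.3, LBD29, IAA29, WES1, AT2G18010 and GH3.1), which left 21 probe sets. Only 2 of the 21 were listed with a gene, AT5G62280 and AT2G36220, and neither carried a gene symbol. The other 19 had no listed gene. They are called S and their rank by mean change at 1 h among the 21, S1 being the largest, and the axis of the plot of changes by accession pairs each label with its probe set identifier. All 21 passed the filter on low signal, but 4 of them had a mean at 0 h below the filter limit and passed through their later values.

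Expression was measured on Affymetrix ATH1 arrays, which read each transcript with a set of short probes and give 1 signal per probe set. Seedlings, taken whole, came from 7 natural accessions of the plant Arabidopsis thaliana (Col-0, C24, Sha, Bur-0, Bl-1, Fei-0 and Bay-0) and were sampled at times labelled 0 h, 30 min, 1 h and 3 h. Seeds of every group were kept cold and dark for 5 days and then grown for 7 days in liquid culture at 22 °C, with yellow-filtered light for the last 24 h to protect indole-3-acetic acid, the natural auxin. This makes 28 groups and 83 arrays, with 2 arrays for Fei-0 at 3 h and 3 for every other group. No mock-treated arrays were analysed here and the dose of auxin is not stated, so time in culture and auxin treatment cannot be told apart. The 12 Bay-0 arrays are also labelled as a recombinant inbred line and were taken here as Bay-0. Whether the probes match every accession equally was not examined, so differences between accessions are differences in signal.

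Array medians lay between 38.0 and 43.3 signal units. Arrays of the same group correlated at r = 0.975 to 0.993 across probe sets, which are not independent replicates. Serial numbers in the titles run by accession and then by time, and the labels do not say what they number. If they give an order of processing, that order cannot be told apart from accession and time. The leaf genes LHCB4.2 and RCA had group means of 432 to 3740 and 1980 to 4639, and the root hair genes EXPA7 and EXPA18 14.3 to 208 and 18.4 to 114. Leaf transcripts were thus high in every group, and those of root hairs lay below the array median in their lowest groups. In such whole seedlings, fewer cells of a type and less RNA per cell cannot be told apart. Whether replicates were separate cultures is not labelled, and p-values therefore reflect the spread between arrays, which may be technical.

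The sustained probe sets spanned a wide range of sizes. The median change of the 21 was 1.60 at 30 min, 2.00 at 1 h and 1.67 at 3 h on the log2 scale, beside -0.03, -0.01 and 0.01 over all 15922 tested probe sets. These medians follow from the rule. The mean change was highest at 1 h in 14 probe sets, at 30 min in 3 (S9, S10 and S13) and at 3 h in 4 (S11, S12, S15 and S20).

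The probe set with the largest change was S1, at 4.16, 4.68 and 4.47 at 30 min, 1 h and 3 h. Its identifier ends in _s_at, the suffix of probe sets whose probes match more than 1 transcript, so its signal may come from related genes. In Col-0 its 3 arrays read 695, 736 and 806 at 1 h, against 16.0, 19.9 and 26.5 at 0 h. In Sha they read 795, 875 and 1053 at 1 h, against 2.90, 6.26 and 14.3 at 0 h. Over all accessions the lowest later array read 326, in Bur-0 at 30 min, and the highest 0 h array read 33.1, in Fei-0.

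Next in size at 1 h were S2 (3.03), S3 (2.57) and S4 (2.47). Their course after 1 h differed: S2 changed by 1.85 at 3 h and S4 by 1.79, while S3 still changed by 2.51. In Col-0, S3 read 117, 123 and 161 at 1 h, against 8.74, 9.52 and 13.2 at 0 h. At 3 h the third largest change, after S1 and S3, was 2.21 in S11.

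Signal at 0 h was under 16 in every accession for S3, S6, S15 and S20. A change on the log2(signal + 16) scale understates the fold of such low values, and it depends on the constant added. Closest to the edge inside the rule were AT5G62280, with 1.09 at 3 h, S19, with 1.11 at 30 min, and S21, with 1.12 at 3 h. Just outside were AT2G18690, with 0.98 at 30 min, and 2 probe sets with no listed gene, 1 with 0.996 at 30 min and 1 with 0.95 at 3 h.

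**Figure D1:**
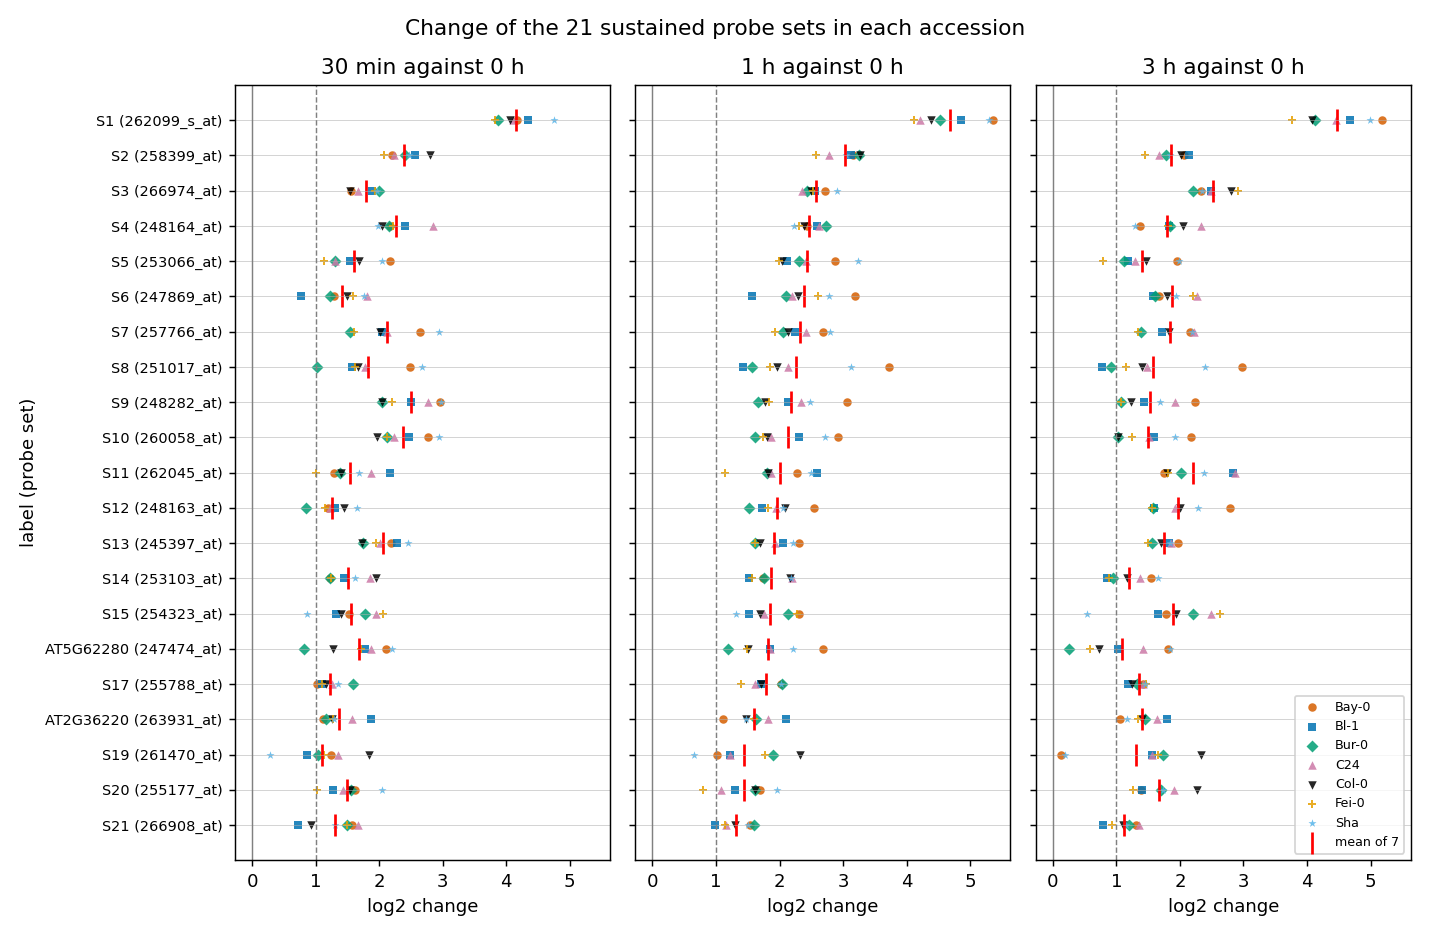
Log2 change from 0 h (horizontal axis) of each of the 21 sustained probe sets (vertical axis, ordered by mean change at 1 h) at 30 min, 1 h and 3 h. Symbols are group means of 7 accessions, red bars their mean, and the dashed line a change of 1. S1 stands alone at 3.77 to 5.36, and the low points at 3 h are S19 in Bay-0 and Sha, AT5G62280 in Bur-0 and S15 in Sha.

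In single accessions the change was above 0 in all 147 combinations of probe set and accession at each time. It was at least 1 in 139 at 30 min, 144 at 1 h and 133 at 3 h. Every array at the later time lay above every 0 h array of its accession in 146, 147 and 144 of the 147 at 30 min, 1 h and 3 h, beside 12.4%, 13.7% and 17.5% of all tested combinations. The exceptions were S19 in Sha at 30 min, and at 3 h S19 in Bay-0 and Sha and AT5G62280 in Bur-0. These counts share the contrasts of the rule and are descriptions.

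To test the response on arrays that had not chosen the probe sets, the rule was applied to 6 accessions and the probe sets it gave were tested in the seventh. This gave 20 to 23 probe sets per accession and 152 choices in all. A call needed a Benjamini-Hochberg adjusted p under 0.05 in limma's test over all tested probe sets and a change of at least 2-fold. Higher signal than at 0 h was called in the left-out accession for 137 of 152 choices at 30 min, 142 at 1 h and 131 at 3 h. Over all tested probe sets and accessions the same call was made for 1.07%, 1.22% and 1.41%. At all 3 times 125 of the 152 passed, beside 0.445% of all tested combinations. With 64 as the constant added, the calls numbered 88 at 30 min and 87 at 3 h.

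By accession, the share called at 1 h was 20 of 21 in Bay-0, 20 of 22 in Bl-1, 21 of 23 in Bur-0, 21 of 22 in C24, 20 of 20 in Col-0, 20 of 22 in Fei-0 and 20 of 22 in Sha. The same call at 1 h covered 1.15%, 0.904%, 1.90%, 1.11%, 1.53%, 0.697% and 1.26% of all tested probe sets in these accessions, in the same order. At 30 min the counts were 21, 18, 19, 21, 19, 21 and 18, beside 1.26%, 1.03%, 1.24%, 0.911%, 1.34%, 0.553% and 1.17%. At 3 h they were 19, 19, 18, 21, 19, 17 and 18, beside 1.76%, 1.03%, 1.61%, 1.46%, 1.95%, 0.572% and 1.48%. The median change of the choices at 3 h was lowest in Fei-0, at 1.40, and highest in Sha, at 1.79.

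The left-out accession also held its change. In 138 of 152 choices its change at 3 h was at least 50.0% of its own larger earlier change. Of the 135 choices called at both 30 min and 1 h, 127 held it, beside 67.3% of all tested combinations with those calls. C24 had 21 of 22 choices called at all times, and Bay-0 19 of 21. Bl-1 and Fei-0 had the lowest counts, 16 of 22 each. Among the choices without a call, S19 missed at 30 min in Bl-1 and Sha, at 1 h in Sha and at 3 h in Bay-0 and Sha. AT5G62280 missed at 30 min in Bur-0 and at 3 h in Bur-0, Col-0 and Fei-0. Choices overlap strongly between accessions, so the 152 are not independent.

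Accessions differed in how strongly these probe sets responded. The rule used the mean over accessions and not the differences among them. A moderated F test across the 7 accessions, with a range of at least 1 required, called 8 of 21 at 30 min, 11 at 1 h and 11 at 3 h. The same call covered 9.14%, 7.33% and 11.2% of all tested probe sets. It thus covered 38.1%, 52.4% and 52.4% of the sustained probe sets, beside 51.5%, 47.3% and 60.6% of probe sets called higher in the mean response. Against probe sets called higher, the share of the sustained probe sets was lower at 30 min and 3 h and higher at 1 h, and none of these differences was tested. The comparisons at the 3 times share their 0 h arrays. With 64 in place of 16 as the constant added, the counts were 4, 4 and 5. When replicate 1, 2 and 3 were left out in turn, 4, 7 and 8 of the calls at 30 min, 1 h and 3 h were made every time. Differences at all 3 times were called for S5, S8, S11, AT5G62280 and S19.

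For S8 the response at 1 h spanned 2.30, with 3.73 ± 0.15 (SE) in Bay-0 and 3.12 in Sha, and 1.43 in Bl-1 as the lowest (adjusted p = 1.46e-14, limma F test). In Bay-0 the 3 arrays read 982, 1028 and 1104 at 1 h, against 56.3, 62.5 and 72.2 at 0 h. In Bl-1 they read 1181, 1198 and 1330 at 1 h, against 393, 443 and 516 at 0 h. At 1 h the arrays of Bay-0 and Sha still lay below all those of the other accessions, whose lowest was 1181. Larger responses in Bay-0 and Sha went with lower levels at 0 h, and with levels at 1 h that were lower too.

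**Figure D2:**
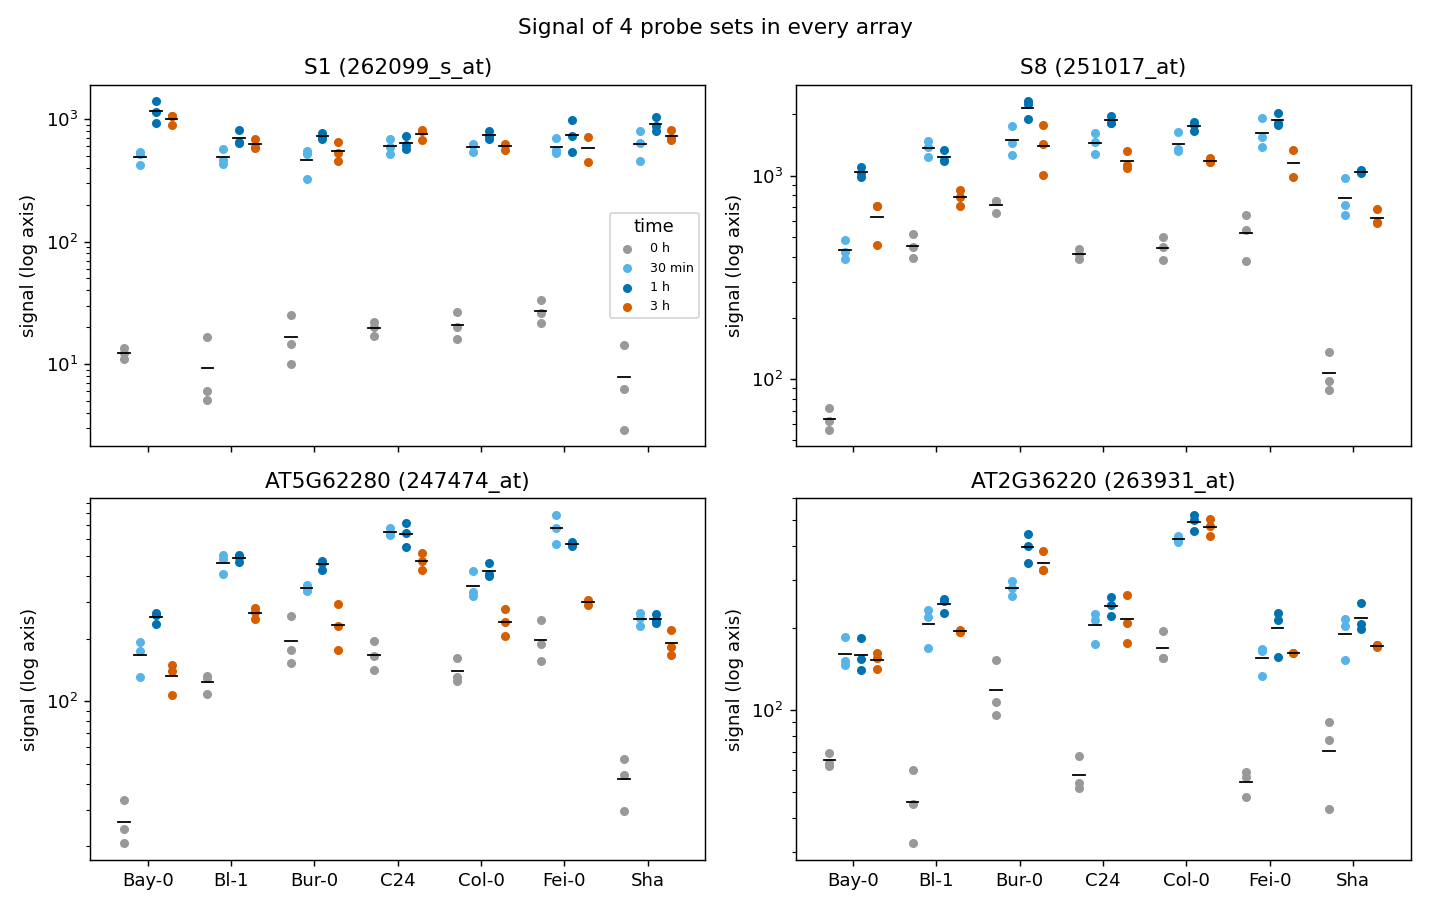
Signal (vertical log axis) of 4 sustained probe sets in every array, by accession (horizontal axis) and time (colour), with group means as black bars. In S8 and AT5G62280, Bay-0 and Sha have the lowest signals at 0 h, and in S1 every later array lies far above the 0 h arrays.

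The probe set S19 went the other way in Bay-0 and Sha at 1 h and 3 h. Its response at 3 h was 2.33 ± 0.18 (SE) in Col-0, against 0.13 ± 0.18 in Bay-0 and 0.19 ± 0.18 in Sha (range 2.21, adjusted p = 1.38e-11, limma F test). In Col-0 the arrays read 300, 333 and 384 at 3 h, against 43.6, 54.3 and 66.2 at 0 h. In Bay-0 they read 50.4, 68.6 and 87.3 at 3 h, against 52.6, 62.6 and 66.6 at 0 h, so the groups overlapped. Earlier, Bay-0 had read 144, 173 and 179 at 30 min and 136, 138 and 141 at 1 h. Sha had read 64.6, 86.0 and 106 at 30 min and 106, 112 and 122 at 1 h.

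For S15 the accession that stood apart at 3 h was Sha. Its 3 arrays read 11.1, 12.2 and 13.7, while the arrays of the other 6 accessions read 41.5 to 114. The response at 3 h was 0.54 in Sha and 2.63 in Fei-0 (range 2.09, adjusted p = 1.05e-09, limma F test). All accessions had low signal at 0 h, with group means of 1.51 to 6.12, and no difference in level was called there (range 0.33, adjusted p = 0.543, limma F test). These means lay below the constant added, which narrows differences between such low values on the log2 scale. The test therefore cannot show that the accessions had like levels at 0 h. With a constant of 1, a difference in level at 0 h was called for S15.

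The smallest ranges at 1 h belonged to S4 (0.51), S3 (0.56) and S21 (0.60), with adjusted p of 0.291, 0.611 and 0.292 in limma's F test. A p above the threshold does not show that the accessions responded alike. No difference in response was called at any time for 7 of the 21: S2, S3, S13, S14, S17, AT2G36220 and S21. The other 14 were called at 1 or more times, beside 15.3% of all tested probe sets and 69.8% of those called higher in the mean response at 1 or more times. At any range, adjusted p was under 0.05 for 18, 18 and 16 of the 21 at 30 min, 1 h and 3 h, beside 29.9%, 21.8% and 32.4% of all tested probe sets and 80.4%, 72.9% and 76.1% of those called higher in the mean response.

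S1 changed at 1 h by 5.36 in Bay-0, 4.85 in Bl-1, 4.53 in Bur-0, 4.21 in C24, 4.38 in Col-0, 4.12 in Fei-0 and 5.30 in Sha. S8 changed at 1 h by 3.73 in Bay-0, 1.43 in Bl-1, 1.56 in Bur-0, 2.14 in C24, 1.96 in Col-0, 1.84 in Fei-0 and 3.12 in Sha. AT5G62280 changed at 1 h by 2.69 in Bay-0, 1.86 in Bl-1, 1.19 in Bur-0, 1.84 in C24, 1.51 in Col-0, 1.48 in Fei-0 and 2.21 in Sha. In these 3 Bay-0 had the largest response, with Sha next. S19 changed at 1 h by 1.01 in Bay-0, 1.22 in Bl-1, 1.89 in Bur-0, 1.22 in C24, 2.32 in Col-0, 1.76 in Fei-0 and 0.65 in Sha. S6 changed at 1 h by 3.18 in Bay-0, 1.57 in Bl-1, 2.11 in Bur-0, 2.20 in C24, 2.30 in Col-0, 2.61 in Fei-0 and 2.77 in Sha. S11 changed at 1 h by 2.28 in Bay-0, 2.60 in Bl-1, 1.81 in Bur-0, 1.86 in C24, 1.82 in Col-0, 1.15 in Fei-0 and 2.50 in Sha. Bay-0 was highest and Sha next for S6 too, while Col-0 was highest for S19 and Bl-1 for S11. Over the 21, Bay-0 was highest at 1 h in 9 (42.9%) and Sha in 4 (19.0%). Among the 129 probe sets called higher in the mean response at 1 h, the shares were 30.2% and 24.8%. These shares were not tested against each other. S2 changed at 1 h by 3.16 in Bay-0, 3.13 in Bl-1, 3.25 in Bur-0, 2.78 in C24, 3.27 in Col-0, 2.58 in Fei-0 and 3.05 in Sha. S3 changed at 1 h by 2.71 in Bay-0, 2.55 in Bl-1, 2.43 in Bur-0, 2.35 in C24, 2.49 in Col-0, 2.53 in Fei-0 and 2.91 in Sha. S4 changed at 1 h by 2.43 in Bay-0, 2.59 in Bl-1, 2.74 in Bur-0, 2.62 in C24, 2.39 in Col-0, 2.31 in Fei-0 and 2.23 in Sha. These 3 had narrow ranges. S21 changed at 1 h by 1.53 in Bay-0, 0.99 in Bl-1, 1.60 in Bur-0, 1.16 in C24, 1.30 in Col-0, 1.14 in Fei-0 and 1.50 in Sha. AT2G36220 changed at 1 h by 1.10 in Bay-0, 2.10 in Bl-1, 1.64 in Bur-0, 1.81 in C24, 1.47 in Col-0, 1.60 in Fei-0 and 1.47 in Sha. Bl-1 was lowest for S21 and highest for AT2G36220.

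For 9 other probe sets the lowest and highest group means at 1 h and 0 h are given here. A mean change at 1 h was required by the rule, so these values are descriptions. S5 had group means of 146 (Fei-0) to 227 (Bur-0) at 1 h, against 8.72 (Sha) to 34.4 (Bur-0) at 0 h. S7 had group means of 947 (Sha) to 1989 (Bur-0) at 1 h, against 123 (Sha) to 470 (Bur-0) at 0 h. S9 had group means of 165 (Col-0) to 285 (Bl-1) at 1 h, against 14.3 (Bay-0) to 61.7 (Bur-0) at 0 h. Bay-0 or Sha was lowest at 0 h in each of these. S10 had group means of 437 (Bur-0) to 608 (Bay-0) at 1 h, against 67.3 (Bay-0) to 150 (Fei-0) at 0 h. S12 had group means of 639 (Bay-0) to 1268 (C24) at 1 h, against 95.6 (Bay-0) to 338 (Bur-0) at 0 h. S13 had group means of 261 (Bay-0) to 325 (Bl-1) at 1 h, against 39.9 (Bay-0) to 93.4 (Bur-0) at 0 h. In these Bay-0 was lowest at 0 h. S14 had group means of 110 (Bay-0) to 308 (Col-0) at 1 h, against 18.3 (Sha) to 56.9 (Bur-0) at 0 h. S17 had group means of 635 (Fei-0) to 859 (Bay-0) at 1 h, against 180 (Sha) to 229 (Fei-0) at 0 h. S20 had group means of 37.7 (Fei-0) to 79.4 (Sha) at 1 h, against 3.19 (Bay-0) to 14.6 (Fei-0) at 0 h. Sha or Bay-0 was lowest at 0 h in all 3. Over the 21, Bay-0 was lowest at 0 h in 11 (52.4%), beside 21.0% of all tested probe sets. Sha was lowest in 5 (23.8%), beside 11.9%. These counts were not tested. The rule used changes from the same 0 h arrays, so the choice of probe sets is not independent of their 0 h levels.

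The step from 1 h to 3 h, tested across accessions, was called different for 5 of 21, beside 3.97% of all tested probe sets. This test was added after the data had been seen. Among these 5, C24 had the highest step in 4 and Bay-0 the lowest in 4. The same counts were not taken over all tested probe sets, so no share can be set beside them. For S6 the Bay-0 arrays read 28.8, 38.0 and 52.0 at 3 h, against 117, 139 and 169 at 1 h, while C24 read 62.4, 77.0 and 78.8 at 3 h, against 64.0, 65.9 and 76.7 at 1 h (range 1.57, adjusted p = 0.00013, limma F test). For S11 the C24 arrays read 338, 346 and 348 at 3 h, against 115, 162 and 232 at 1 h, and Bay-0 read 229, 230 and 352 at 3 h, against 333, 396 and 440 at 1 h. The remaining members of this group were S15, S19 and S20. Without replicate 1, 2 or 3 in turn, 3 probe sets were called each time, and of the 5 only S15 was called in all. With a constant of 1 the calls were S11, S15 and S19, and with 64 they were S6 and S11, so none of the 5 was called under every alternative.

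**Figure D3:**
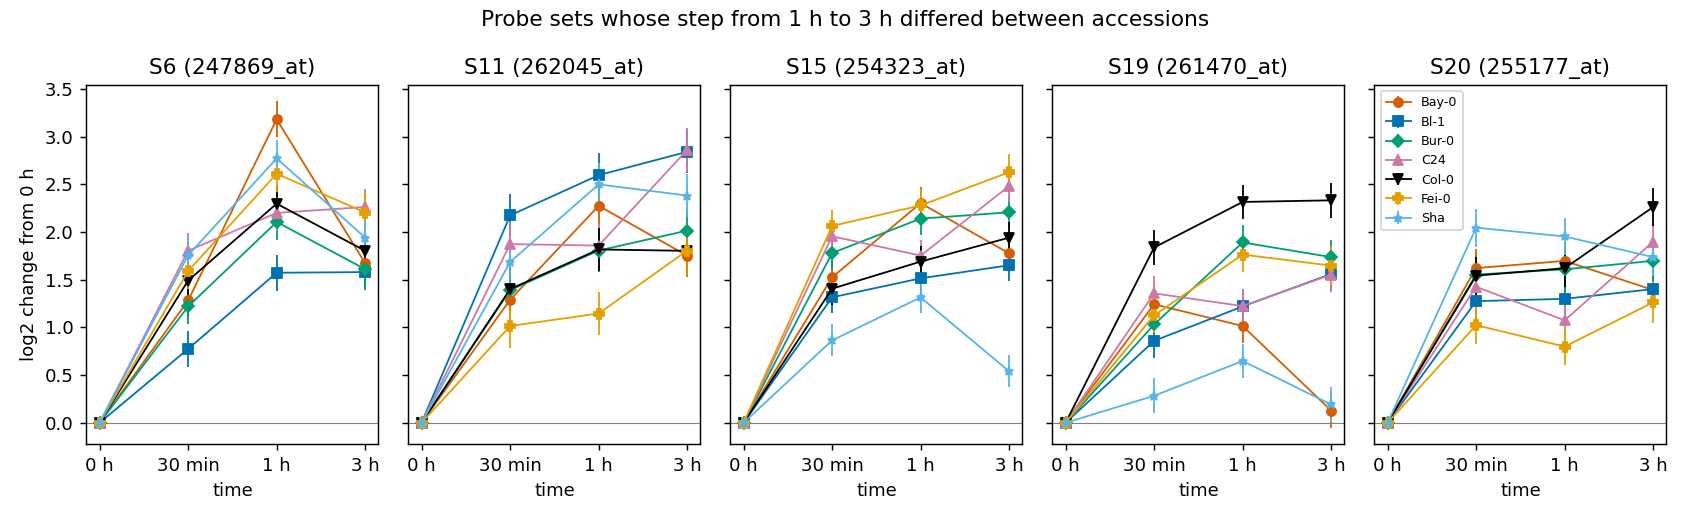
Log2 change from 0 h (vertical axis, with the SE of the model) against time (horizontal axis, evenly spaced labels) for the 5 sustained probe sets whose step from 1 h to 3 h differed between accessions, 1 line per accession. The largest falls after 1 h are those of Bay-0 in S6 and S19 and of Sha in S6 and S15, and some other accessions fall there too.

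Signal levels at 0 h differed between accessions for 12 of 21, beside 23.1% of all tested probe sets. The count was 19 with a constant of 1 and 6 with 64. The widest were S8, with a range of 3.20 and group means of 63.7 in Bay-0 and 717 in Bur-0, AT5G62280, with a range of 2.33 and 26.1 in Bay-0 and 197 in Fei-0, and S2, with a range of 2.18 and 33.2 in Bay-0 and 209 in Bur-0. Bay-0 had the lowest 0 h level in 11 of the 21 (52.4%), beside 21.0% of all tested probe sets, and Bur-0 the highest in 9 (42.9%), beside 12.9%. These counts were chosen after the values were seen and were not tested. They come from the 0 h arrays that also entered the rule, so they are not independent of the choice. The shares among probe sets called higher in the mean response were not computed for levels at 0 h. The part of probe match to each accession in these levels was not tested.

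Of the 2 control ratios of 3′ to 5′ signal, readings of RNA and labelling quality, that of actin stood apart in Bay-0 and C24 and that of GAPDH did not. Bay-0 had group means of 2.57 to 5.57 and C24 of 2.89 to 5.87 for actin, while the other 5 accessions lay between 13.4 and 105. For GAPDH, Bay-0 lay at 1.64 to 2.10 and C24 at 1.61 to 2.99, within or close to the 1.41 to 2.92 of the others. C24 held the lowest 0 h level in 2 of the 21 (9.5%), beside 11.3% of all tested probe sets. The part of the actin ratio in the level and response differences was not tested.

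In S2 the accessions stayed apart at all times, while the range of their responses (0.72, 0.70 and 0.68 at 30 min, 1 h and 3 h) stayed under the size required. Adjusted p for a difference in response was still under 0.05 at these times (0.016, 0.012 and 0.032, limma F test). With 64 as the constant added, S2 was called different at 30 min. In Bur-0 it read 1971, 2059 and 2262 at 1 h, against 181, 182 and 264 at 0 h, and in Bay-0 it read 372, 444 and 460 at 1 h, against 29.6, 32.9 and 37.1 at 0 h. The range of levels over accessions was 2.18 at 0 h, 2.44 at 30 min, 2.37 at 1 h and 2.11 at 3 h. Of the 12 probe sets that differed at 0 h, the range was smaller than at 0 h in 9 at 30 min, 8 at 1 h and 11 at 3 h. Among all tested probe sets that differed at 0 h this held for 57.3%, 70.3% and 67.1%.

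**Figure D4:**
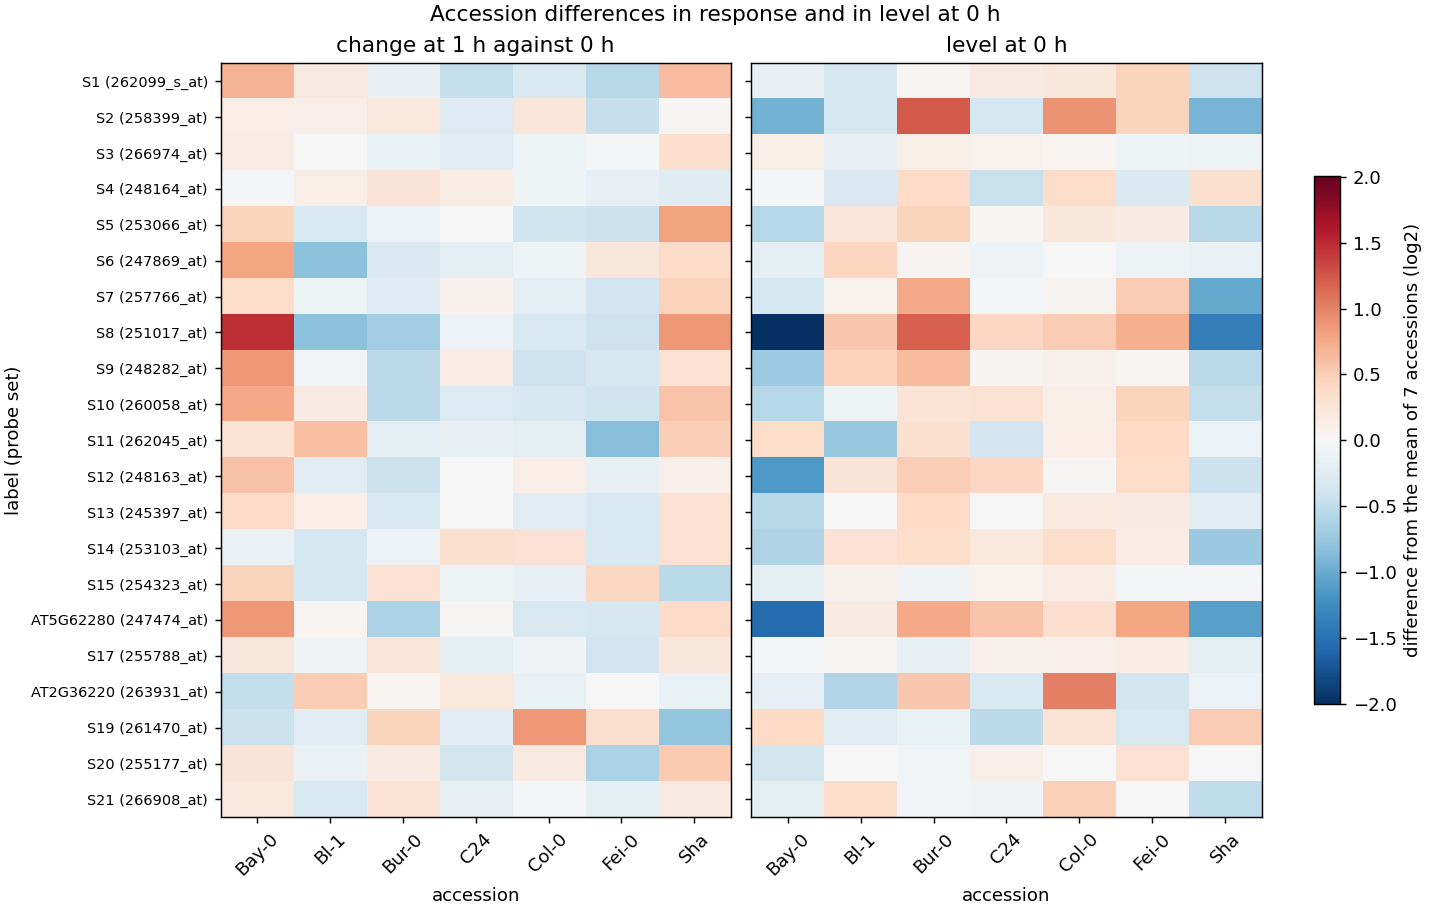
Difference of each accession (horizontal axis) from the mean of 7 (colour, log2 scale) for the change at 1 h and the level at 0 h of the 21 sustained probe sets (vertical axis). Bay-0 is low at 0 h in many of them, most of all in S8 and AT5G62280, and both panels use the same 0 h arrays, so low levels and high changes are not independent.

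AT5G62280 was the named gene with the widest differences. Its mean change was 1.68, 1.82 and 1.09 at 30 min, 1 h and 3 h. In Bay-0 the arrays read 234, 260 and 267 at 1 h, against 20.7, 24.2 and 33.4 at 0 h, and in Bur-0 they read 428, 463 and 473 at 1 h, against 152, 176 and 255 at 0 h. The response at 1 h was 2.69 ± 0.15 (SE) in Bay-0 and 1.19 ± 0.15 in Bur-0 (adjusted p = 6.41e-07, limma F test). At 3 h it was 1.84 in Sha and 0.25 in Bur-0, where the arrays read 177, 231 and 293 and overlapped the 0 h arrays.

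AT2G36220 held its response evenly, at 1.36, 1.60 and 1.41, with 88.0% of the 1 h change left at 3 h. Col-0 stood highest throughout: its arrays read 454, 500 and 522 at 1 h, against 155, 155 and 195 at 0 h. In Bay-0, where the response at 1 h was lowest (1.10), they read 140, 154 and 185, against 62.4, 64.0 and 69.3 at 0 h. The range at 1 h was 0.999 and fell just short of the size required (adjusted p = 0.00768, limma F test).

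Other genes of the auxin pathway, taken from families by symbol, were few, and many probe sets had no listed gene. Counts are of listed probe sets that passed the filter on low signal, which dropped 4 of 7 for Aux/IAA, 1 of 5 for GH3, 5 of 27 for expansins and xyloglucan enzymes and 2 of 13 for ligases. Over all tested probe sets the mean response was called higher for 0.609%, 0.810% and 0.685% at 30 min, 1 h and 3 h. Of 4 GH3 genes, 3 rose at every time. Of 2 LBD genes, which encode transcription factors of lateral root formation, both rose at 30 min and 1 h and 1 at 3 h. Of 3 Aux/IAA repressors, 2 rose at 30 min and 1 h and 1 at 3 h; IAA30 changed by 1.13, 1.56 and 0.86. HAT2, of the class II HD-Zip transcription factors, was the 1 listed member of its family and rose at all times. Of 11 U-box and RING ligase genes, PUB23 was the 1 called at 30 min, at 1.13, and it changed by 0.96 and 0.69 later. Among 22 expansin and xyloglucan enzyme genes, which loosen cell walls, 2 were called at 1 h and 2 at 3 h, with XTH18 at 1.03 and 1.20. No call in either direction was made at any time for auxin transport (2 probe sets), auxin biosynthesis and oxidation (1 of 4 listed), cytokinin (2 of 6), pectin enzymes (3), cytochromes P450 (15 of 26) or WRKY, MYB and bHLH factors (6 of 8). No SAUR gene carried a SAUR symbol in the listed probe sets.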

How the data were processed

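The deposited values were signal intensities on a linear scale, 1 per probe set and array, made with MAS5 and GCOS per the submitters' processing notes, with versions not stated. Their trimmed mean was 100 in every array, so the arrays had already been brought to 1 scale. The platform annotation listed 13513 probe sets with 1 gene, 503 with several and 8730 with none.

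The analysis used log2(signal + 16). After a filter that dropped the dimmest 30% (6824) by mean, 15922 probe sets were fitted in limma 3.58.1 (R 4.3.3) with 1 mean per group and a trended prior (55 residual and 13.2 prior degrees of freedom). Contrasts were each accession against its own 0 h arrays, their mean, and moderated F tests across accessions of the response, of the level at 0 h and of the step from 1 h to 3 h. A call needed a two-sided adjusted p under 0.05 (Benjamini-Hochberg) and 2-fold, or a range of at least 1 for F tests. Errors are the SE of the model, estimated from replicate arrays.

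The probe sets and gene families were chosen with earlier results of these data known. By rule, values are given for the 3 largest mean changes at 1 h and 3 h, the 3 largest and smallest ranges at 1 h, the 3 largest ranges at 0 h, the named genes and the edges of the rule, ranked over all 21 by probe set. Others were chosen after their values were seen. Same-numbered replicates correlated in their deviations from group means at a median of -0.02 to 0.07 per accession, so the numbers were not used as pairs. No sequences are given, since none were at hand.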

Additional observations from a re-analysis of the deposited data

Results flagged for a closer look

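The response of 14 sustained probe sets differed between accessions by limma's F test at 1 or more times, and for each the time with its widest called range is given here on the log2 scale. The same call covered 15.3% of all tested probe sets, and 69.8% of those called higher in the mean response at 1 or more times. At 1 h the range was 2.30 for S8, 1.61 for S6, 1.45 for S11, 1.39 for S9, 1.31 for S10, 1.24 for S5 and 1.15 for S20. At 3 h it was 2.21 for S19, 2.09 for S15, 1.59 for AT5G62280, 1.41 for S1, 1.23 for S12 and 1.04 for S4. At 30 min it was 1.41 for S7.

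The step from 1 h to 3 h differed between accessions for 5 probe sets, with ranges of 1.57 for S6, 1.53 for S11, 1.51 for S15, 1.23 for S19 and 1.13 for S20. The lowest step was in Bay-0 for each of these except S15, where it was in Sha. The share of all tested probe sets with the lowest step in Bay-0 was not computed.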

How the results depend on the processing

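The constant added before taking log2 moved most counts. With a pseudocount of 1 the rule gave 61 probe sets, all 21 among them, and with 64 it gave 11, all of them among the 21. With 64, calls in the left-out accession numbered 88 at 30 min and 87 at 3 h, and differences in response numbered 4, 4 and 5 at 30 min, 1 h and 3 h; with 1, differences at 30 min numbered 13. Differences in level at 0 h numbered 19 with 1 and 6 with 64, and those in the step 3 with 1 and 2 with 64. Leaving out replicate 1, 2 or 3 gave 3 differences in the step each time, and 6 to 8, 9 to 11 and 10 to 11 differences in response at 30 min, 1 h and 3 h. When each replicate number was left out in turn, 4, 7 and 8 of the reported response calls held every time at 30 min, 1 h and 3 h, and S8 and S19 held under every alternative at each time. Leaving out an accession gave 20 to 23 probe sets by the rule. Fits with a replicate block called 137, 142 and 132 choices, 8, 11 and 12 differences in response, 5 in the step and 12 at 0 h. Quantile normalization and no filter left every count within 1.5 times. Of 378 mean changes recomputed per probe set, 267 moved by less than the spread, 111 by more and 0 changed sign. All 111 came with 1 or 64 as the constant added, and none with quantile normalization or a replicate left out. The comparison of promoter motifs was not run, since no promoter sequences were at hand. The number of arrays, 2 or 3 per group, limits the precision, and values near or under 16 at 0 h limit the changes of the 4 lowest probe sets.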
